A study of Mus musculus with 282 samples.

Results

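The genes described here are 5 nuclear receptors of mouse hypothalamus: Esr1 (estrogen receptor alpha), Pgr (progesterone receptor), Nr3c1 (glucocorticoid receptor), Nr3c2 (mineralocorticoid receptor) and Esrra (estrogen-related receptor alpha). They were chosen by name. All 5 were found among the 14079 deposited gene rows, together with 16 of the 51024 deposited transcripts. The study sequenced mRNA from the whole hypothalamus of male mice of 99 strains of the Hybrid Mouse Diversity Panel, a collection of classical inbred and recombinant inbred strains. Every mouse had been fed a high fat, high sugar diet, so no animal served as a diet control, and the ages of the mice are not given in the sources used here. By strain name, 43 strains belonged to the BXD panel (C57BL/6J by DBA/2J, 126 mice), 18 to AXB/BXA (A/J and C57BL/6J, 47 mice), 7 to CXB (BALB and C57BL/6 lines, 20 mice) and 6 to BXH (C57BL/6 and C3H lines, 16 mice), and the remaining 25 were classical inbred strains (71 mice). Values are FPKM, fragments per transcript length and sequencing yield, a measure that allows levels of different genes to be compared.

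Steroid receptors are transcription factors that sit in the cell with chaperones until a hormone binds, and then act in the nucleus on genes that carry their response elements. In the hypothalamus, estrogen receptor alpha and progesterone receptor are known from neurons of the preoptic area, the ventromedial and the arcuate nucleus that govern reproduction and energy expenditure. The glucocorticoid receptor is found in most cells and takes part in the negative feedback on stress hormones, and the mineralocorticoid receptor, which binds corticosterone with higher affinity, is best known from the hippocampus. Estrogen-related receptor alpha resembles the estrogen receptors in sequence, binds no known steroid, and works with the coactivator PGC-1 alpha on genes of mitochondrial energy metabolism.

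All 5 receptors share a DNA-binding domain made of 2 zinc fingers. A short stretch of its first finger, the P-box, decides which DNA half-site is read. The coding sequences of this stretch show the split of the family into estrogen-type and glucocorticoid-type receptors and are therefore printed for 4 receptors, 5′ to 3′, from the GENCODE M21 transcripts on GRCm38, with the 3 P-box codons in capitals.
Esr1, chr10:4746768-4746794, plus strand, exon 4: tgcGAAGGCtgcaagGCTttctttaag
Esrra, chr19:6920076-6920102, minus strand, exon 2: tgtGAGGCCtgcaaaGCCttcttcaag
Pgr, chr9:8903708-8903734, plus strand, exon 2: tgtGGGAGCtgcaagGTCttctttaag
Nr3c2, chr8:77085627-77085653, plus strand, exon 3: tgcGGCAGCtgcaaaGTCttcttcaaa
The last 2 carry the P-box codons of the glucocorticoid type, and the first 2 those of the estrogen type. Over the 168 coding bases of the DNA-binding domain, Nr3c1 and Nr3c2 were 82.7% identical, Pgr was 80.4% identical to each of them, Esr1 and Esrra were 61.9% identical, and the lowest value was 56.0% between Nr3c1 and Esrra. Esr1 was 64.9% identical to Nr3c2, 62.5% to Nr3c1 and 61.9% to Pgr. Over the bases of the whole domain, Esr1 was thus no closer to Esrra than to the glucocorticoid type. The longest run of bases shared by any pair of these receptors was 24, between Pgr and Nr3c2, which is shorter than the 50-base reads.

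Reads of 1 receptor could thus not match another receptor in full, and overlap with other genes was small. Of all 50-base windows in the annotated transcripts, 0 of 8495 in Pgr, 5 of 7771 in Nr3c1 (0.0643%, in up to 51 genes) and 46 of 13697 in Esr1 (0.336%, all shared with Ppp2r5a) also occurred in another gene. In Nr3c2, 149 of 6610 windows (2.25%) occurred in Gm10649, a gene on the opposite strand that overlaps 247 exon bases. In Esrra, 66 of 4429 windows (1.49%) occurred in Mir6990 or in Trmt112, which lies on the opposite strand. The libraries did not mark strand, so reads of Nr3c2 and Gm10649, or of Esrra and Trmt112, cannot be told apart in those windows.

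The deposited table had 282 columns. Columns 2 and 3 of strain CXB-6/ByJ were proportional: over 13039 gene rows above 1 FPKM their ratio was 1.0049 and no row departed from it by more than 0.00094%, whereas the next most alike pair of libraries had r = 0.991 on the log2 scale. They differed by less than the sampling noise and were counted as 1 sample, which leaves 281 libraries. One mouse carries the names of 2 strains in its labels and entered no comparison between strains, so that 280 libraries were compared, 3 in 84 strains, 2 in 13 strains and 1 in 2 strains. The sum of FPKM over gene rows was 792801 in the second BXD-12/TyJ mouse and 463433 in the third CXB-3/ByJ mouse, against at most 359916 in the others (median 337533). These 2 libraries held the 2 lowest values of Pgr, Nr3c1 and Nr3c2 and the 2 highest of Esrra, so results that rest on them are given with and without them. The part of RNA quality in this was not tested. Markers of the hypothalamus were present in every mouse: the 9 measured genes of a list of 13 summed to 515.3 to 7925 FPKM with none of them at 0 in any mouse. The upper end of this sum was carried by Pomc, which the pituitary also makes and which ran from 1.45 over a median of 24.2 to 6851 FPKM. Markers of neighbouring tissues varied widely between mice, with a sum of 0.589 to 16462 FPKM for 6 pituitary hormone genes and of 17.4 to 381 FPKM for 5 thalamic genes. In whole tissue, fewer cells of a type and less RNA per cell cannot be told apart.

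Nr3c1 and Esrra were the most abundant of the 5 receptors and Esr1 the least. Nr3c1 was measured at 17.7 ± 3.50 FPKM (SD, n = 281), with a lowest value of 2.23, a median of 17.99 and a highest of 24.9. Esrra reached 17.1 ± 2.85 FPKM, from 9.81 over a median of 17.03 to 30.7. Nr3c2 reached 6.02 ± 1.61 FPKM, from 1.91 over a median of 5.54 to 13.4, with a tail of high values. Pgr reached 5.30 ± 0.910 FPKM, from 1.22 over a median of 5.27 to 8.26. Esr1 reached 2.66 ± 0.761 FPKM, from 1.03 over a median of 2.54 to 5.45. Each receptor exceeded 1 FPKM in all 281 libraries. Without the 2 libraries of high FPKM sum, the lowest value rose to 6.11 for Nr3c1, 3.77 for Nr3c2 and 3.51 for Pgr, and the highest of Esrra fell to 23.9.

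The values of Esrra are the sum of its 4 deposited transcripts. Its deposited gene row (XLOC_018302) joins Esrra with the neighbouring Prdx5, a peroxiredoxin gene, and was at 199.7 ± 51.1 FPKM, of which the Prdx5 transcripts made up 181.8 ± 49.7. Tests on this row therefore mostly read Prdx5, and both values are given below.

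**Figure D1:**
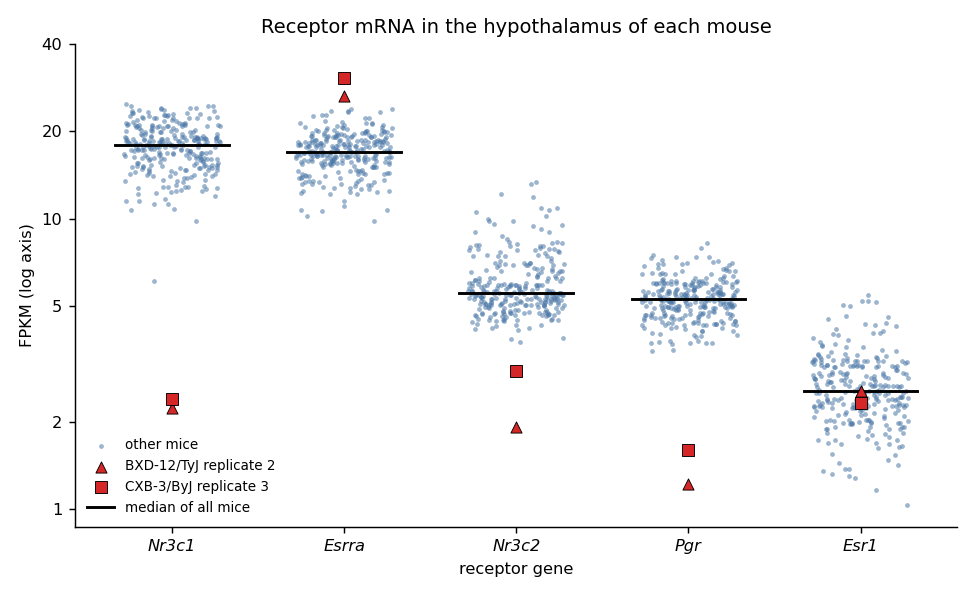
FPKM of the 5 receptor genes in each of 281 libraries, on a log axis, with a line at the median of each gene. Red symbols mark the 2 libraries with the highest FPKM sums, which lie below all other mice for Nr3c1, Nr3c2 and Pgr, above all others for Esrra, and near the median for Esr1.

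The order of levels rests on unlike measures. Esrra was the sum of its deposited transcripts, while the others were gene rows, which also hold transcripts below the authors' filter. The deposited transcripts made up 20.7% of the gene row of Esr1 and 15.9% of that of Pgr. The order on a common measure was not tested. On these values, the mean ratio of Nr3c1 to Esrra was not told apart from 1. Nr3c1 was higher in 173 of 281 mice and in 54 of 99 strain means, with a mean ratio of 1.02 (permutation of signs over strains, 2-sided p = 0.316, 100000 resamples). This comparison was not repeated without the 2 libraries of high FPKM sum. The other neighbours in the order were apart. Esrra exceeded Nr3c2 by 2.90-fold, in 99 of 99 strains, and Pgr exceeded Esr1 by 2.04-fold, also in 99 of 99 strains. Nr3c2 exceeded Pgr by 1.12-fold, in 68 of 99 strains. For these 3 pairs p was 1e-05, the smallest that the permutations can give. The balance of both corticosteroid receptors, the ratio of Nr3c2 to Nr3c1, was 0.354 ± 0.127 over mice. Its strain means ran from 0.236 in CE/J to 0.660 in CXB-3/ByJ. The latter holds 1 of the 2 libraries of high FPKM sum, with Nr3c2 at 2.98 and Nr3c1 at 2.38 FPKM. That library was the 1 mouse in which the ratio exceeded 1.

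Differences among strains were then tested for each gene with 1 limma moderated F test over all 99 strains, and their size was given by the intraclass correlation of log2(FPKM + 1), called the strain share. The deposited rows of Nr3c1 and Nr3c2 passed the threshold of 0.05 on the adjusted p, 2 of 5 receptors. Of all 14079 gene rows 74.9% passed, which is a larger share than 2 of 5. Taken as the sum of its transcripts, Esrra passed too, and 66.7% of all such sums did. With every receptor taken as the sum of its deposited transcripts, Esrra was the 1 of 5 to pass, and the calls of Nr3c1 (adjusted p = 0.0819) and Nr3c2 (0.248) were lost. The strain shares of the receptors were between 0.0138 and 0.152, the latter for the sum of Esrra transcripts. The median was 0.221 over all gene rows and 0.182 over all such sums.

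Esr1, the receptor through which estradiol acts on hypothalamic neurons, lies at chr10:4611593-5005614 on the plus strand. Its strain means spanned 2.44-fold. The 3 mice of BXD61 had 1.92, 1.63 and 1.44 FPKM, those of BXA-4/PgnJ 1.03, 1.67 and 2.38, and those of BXD44 1.37, 2.46 and 1.54. At the other end, BXD51 had 5.45, 3.33 and 3.38 FPKM, CXB-12/HiAJ 5.06, 3.28 and 3.10, and BXD75 4.11, 3.68 and 3.42. All 9 mice of the 3 highest strains lay above all 9 mice of the 3 lowest, which is a consequence of choosing the ends. Across all strains the strain share was 0.1004 (95% interval -0.0230 to 0.238) and the test missed the threshold (adjusted p = 0.0632). Leaving out both libraries of high FPKM sum left it there (0.0591).

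Pgr, whose expression in many hypothalamic neurons is induced by estradiol, lies at chr9:8899833-8968611 on the plus strand. It was the receptor with the smallest strain component. RIIIS/J, with 6.92, 7.16 and 6.98 FPKM, had the highest mean and little spread. BXD-19/TyJ had 7.38, 5.83 and 7.02, and BXH-6/TyJ 8.26, 5.66 and 6.09. The lowest mean was that of BXD-12/TyJ, but its mice had 4.48, 1.22 and 6.99 FPKM, so the mean rests on the library of high FPKM sum. Next were BXA-12/PgnJ, with 4.36 and 4.20, and BXD70, with 4.58, 3.74 and 4.67. The strain share was 0.0138 (-0.101 to 0.147) with an adjusted p of 0.409, and of 0.0993 without both libraries.

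Nr3c1, the receptor for corticosterone at stress levels, lies at chr18:39410545-39519421 on the minus strand. BXD44 had 23.1, 24.5 and 21.2 FPKM, CE/J 20.6, 24.4 and 23.8, and AXB-19/PgnJ 22.2, 21.9 and 23.8. BXH-9/TyJ had 12.7, 11.9 and 11.3 FPKM and PL/J 11.7 and 12.98. These strains did not overlap with the 3 highest, which here too is a consequence of choosing the ends. The lowest mean, in CXB-3/ByJ, came from mice with 16.8, 14.3 and 2.38 FPKM. The strain share was 0.126 (0.000277 to 0.264) and passed the test (adjusted p = 0.0283). Without the BXD-12/TyJ library the adjusted p was 0.000289, and without both 3.44e-05, where 80.9% and 83.6% of all gene rows passed.

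Nr3c2, the receptor for aldosterone and for corticosterone at resting levels, lies at chr8:76899442-77245012 on the plus strand. Its highest strains were uneven. AXB-13/PgnJ had 6.92, 10.9 and 10.9 FPKM, BXD-9/TyJ 7.53, 6.54 and 13.4, and BXD68 13.2, 5.78 and 7.795. Low means were those of PL/J, with 4.17 and 4.67, and of CXB-6/ByJ, with 4.33 and 4.68. BXD-12/TyJ had the lowest mean, from 4.95, 1.91 and 6.16 FPKM. The strain share was 0.124 (-0.00118 to 0.262) with an adjusted p of 0.0303, and of 0.0291 without both libraries. With sequencing yield and unique alignment rate as covariates, Nr3c2 stayed just inside the threshold (0.0489) and Nr3c1 fell outside it (0.0570).

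Esrra lies at chr19:6910977-6921813 on the minus strand. BXD-38/TyJ had 10.2, 13.1 and 14.1 FPKM, BXD49 12.2, 12.98 and 13.8, and CXB-12/HiAJ 9.81, 15.04 and 14.3. BXA-4/PgnJ, with 20.7, 20.03 and 19.5 FPKM, lay above all of these mice, as did BXD-21/TyJ with 22.7, 16.6 and 21.7. This separation again is a consequence of choosing the ends. The highest mean, in CXB-3/ByJ, came from 17.3, 15.5 and 30.7 FPKM, the last in the library of high FPKM sum. Its strain share was 0.152 (0.0246 to 0.290), the largest of the 5 receptors (adjusted p = 0.0149, and 0.01002 without the BXD-12/TyJ library and 0.00587 without both, where 74.5% and 77.5% of all such sums passed). The joined row of Esrra and Prdx5 had a share of 0.105 and an adjusted p of 0.0584, and of 0.0274 without the CXB-3/ByJ library, 0.00563 without the BXD-12/TyJ library and 0.000358 without both. For none of the 5 receptors did any of the 98 gaps between neighbouring strain means exceed the SD within strains, so the order of neighbouring strains was not resolved.

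**Figure D2:**
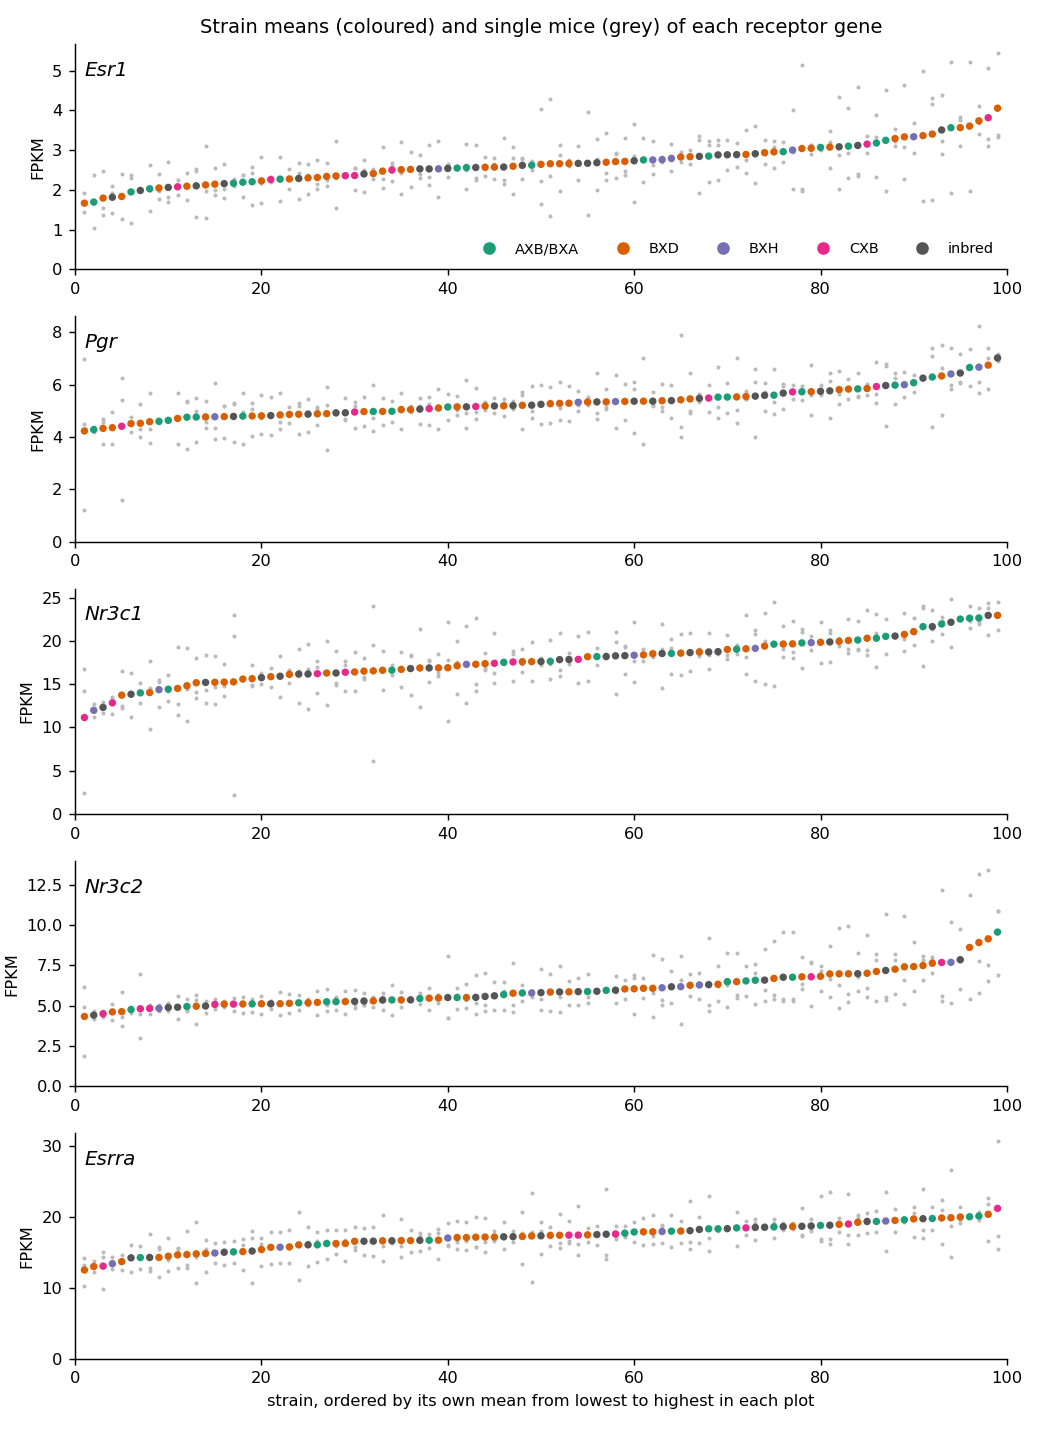
Strain means of each receptor (coloured by panel) and the single mice (grey), in FPKM, with 99 strains ordered by mean separately in each plot. Means change gradually from strain to strain, and single mice of a strain overlap with many other strains.

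The deposited transcripts show which messages stand behind these levels, and for 2 receptors most of the gene level was not assigned to any of them. The only deposited transcript of Esr1, TCONS_00023641, had 0.551 ± 0.487 FPKM, 20.7% of the gene row, and was at 0 in 29 mice. It is an isoform that the reference annotation lacks: 4 exons that begin 327.8 kb downstream of the annotated gene start and hold 26.9% of the coding bases, with 2 of its 6 splice sites displaced by 1 base from annotated ones. That start rests on a first exon of 3 bases (chr10:4939349-4939351), and whether it is real was not tested. The only deposited transcript of Pgr, TCONS_00346706, is an annotated form with 8 exons and the whole coding sequence, and had 0.843 ± 0.583 FPKM, 15.9% of the gene row. The annotation also holds a Pgr form that starts 0.635 kb further upstream. Neither passed the strain test (adjusted p = 0.554 and 0.0905). Transcripts below the authors' filter were not analysed here.

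Nr3c1 had 6 deposited transcripts. TCONS_00165641, an annotated form with 8 exons, was at 9.49 ± 3.15 FPKM and made up 56.6% ± 16.04 of the deposited Nr3c1 transcripts. TCONS_00165633, an unannotated form with 2 unknown splice sites and a last exon of 11 bases, followed at 3.95 ± 2.44 FPKM. The other 4 were each at or below 1.18 FPKM on average. TCONS_00165637 passed the strain test (adjusted p = 0.0148), as did TCONS_00165644, a form of 4 exons with 61.6% of the coding bases (0.00643). TCONS_00165641 (0.0501) and TCONS_00165633 (0.0514) lay just outside. The shares of 3 of these transcripts within the gene also differed between strains, for TCONS_00165641 (adjusted p = 0.0354), TCONS_00165637 (0.0195) and TCONS_00165644 (0.0190). In strain means, the share of TCONS_00165641 ran from 29.7% in BXHB2 to 85.6% in CXB-6/ByJ, and that of TCONS_00165633 from 2.82% in CXB-6/ByJ to 50.4% in BXHB2.

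Nr3c1 is known to use several alternative untranslated first exons. Of its 4 deposited start sites, TSS42647 carried 10.1 ± 3.04 FPKM, TSS42643 4.35 ± 2.36, TSS42645 2.197 ± 0.933 and TSS42644 0.751 ± 0.501. TSS42647 (adjusted p = 0.00909) and TSS42645 (0.0369) differed between strains, and the others missed the threshold. The main transcript at TSS42647, TCONS_00165641, begins at chr18:39487245. In TCONS_00165633, TCONS_00165637 and TCONS_00165644 this position is the edge of an exon that follows a first exon. The level of TSS42647 is thus not a measure of first exon use. Exon 3 of Nr3c1, which encodes part of the DNA-binding domain, ended at 2 sites in the deposited transcripts. The form with 164 bases (chr18:39428617-39428780) was in 3 transcripts that made up 87.0% ± 10.2 of the deposited Nr3c1 signal. A form longer by 3 bases (chr18:39428614-39428780), known as glucocorticoid receptor gamma, which has 1 more codon between the zinc fingers, was in 2 transcripts with 9.21% ± 9.58 (median 7.83%), and was at 0 in 46 mice. In the third CXB-3/ByJ mouse, 1 of the libraries of high FPKM sum, the longer form made up 81.9% and the shorter 1.57%, whereas the other mice, the second BXD-12/TyJ mouse aside, had at most 36.6% of the longer and at least 58.8% of the shorter.

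Nr3c2 had 4 deposited transcripts. TCONS_00333169 led with 2.35 ± 1.10 FPKM and 60.0% ± 23.5 of the deposited transcripts, and was the only one to pass the strain test (adjusted p = 0.0362), with strain values from 0.259 FPKM in I/LnJ, a strain with 1 mouse, to 5.25 in BXD-9/TyJ. TCONS_00333157, which differs in its first exon, was at 0.807 ± 0.686 FPKM. TCONS_00333170, an unannotated form, had 10 of its 16 splice sites displaced by 1 base from annotated ones and was at 0 in 77 mice. TCONS_00333194, a short form that is not annotated as coding, was at 0 in 179 mice. Their shares within the gene did not pass the test in any of the 4 cases (lowest adjusted p = 0.339). The coding sequence shared by TCONS_00333169 and TCONS_00333157 (P40091) had 3.16 ± 1.17 FPKM and the largest strain share of any receptor feature, 0.252 (adjusted p = 0.000171), from 0.977 FPKM in the 1 mouse of I/LnJ to 6.75 in BXD-9/TyJ.

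The mouse annotation lists 2 forms of Nr3c2 that differ by 12 bases at the end of exon 3, which lie between the zinc fingers of the DNA-binding domain. They are printed on the plus strand of GRCm38, with 15 bases on each side and the added bases in capitals, because the deposited transcripts can be placed by them.
Long form, exon end chr8:77085678: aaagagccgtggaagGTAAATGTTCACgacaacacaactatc
Short form, exon end chr8:77085666: aaagagccgtggaaggacaacacaactatc
The deposited transcripts with this exon ended it at position 77085666 or 77085667. The long form was thus not among the transcripts analysed here.

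Esrra had 4 deposited transcripts. TCONS_00177116, the annotated form with 7 exons and the whole coding sequence, was at 10.4 ± 3.48 FPKM and made up 61.0% ± 18.7 of the deposited signal. It was the only one to pass the strain test (adjusted p = 0.0474), and its share within the gene passed too (0.0425), from 31.3% in C57L/J to 86.03% in AKR/J. TCONS_00177115 uses another first exon 0.762 kb downstream, keeps the whole coding sequence, and was at 4.19 ± 3.37 FPKM with a highest value of 24.3. TCONS_00177118 and TCONS_00177120, short forms that hold 28.8% and 25.7% of the coding bases, were at 1.38 ± 0.812 and 1.18 ± 0.645 FPKM.

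In total 4 of 16 receptor transcripts passed the strain test, where 45.9% of all transcripts did. Of isoform shares 4 of 14 passed (36.1% of all), of start sites 2 of 11 (49.6% of all) and of coding sequences 4 of 7 (52.0% of all). With quantile normalization 8 of 16 transcripts passed, beside 25836 of all 51024. Without both libraries of high FPKM sum 7 passed, beside 25519 of all, and with a Kruskal-Wallis test 1, beside 19516 of all. FPKM of transcripts of 1 gene come from reads that are divided between overlapping models, so they are less certain than the gene level.

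**Figure D3:**
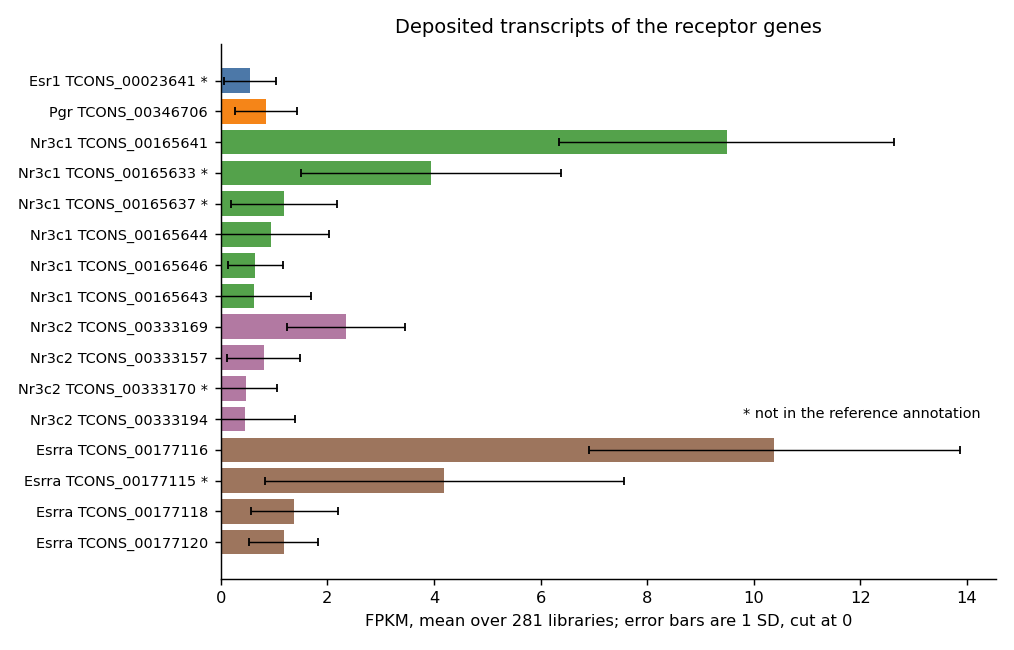
Mean FPKM of the 16 deposited receptor transcripts over 281 libraries, with 1 SD as error bar, cut at 0. An asterisk marks forms missing from the reference annotation. One transcript dominates in Nr3c1, Nr3c2 and Esrra, at 9.49, 2.35 and 10.4 FPKM.

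Strains of a recombinant panel carry the alleles of few founders, and the test was repeated within panels. In the BXD panel 3 of 5 deposited rows passed, with 64.0% of all gene rows doing so. These were Esr1 (adjusted p = 0.0324), Nr3c2 (0.0136) and the joined Esrra and Prdx5 row (0.0135), and the sum of Esrra transcripts passed as well (0.0185, where 60.2% of all such sums did). Without the BXD-12/TyJ library the joined row no longer passed (0.127), while Esr1 (0.0307), Nr3c2 (0.0312) and the Esrra sum (0.0216) did. With the covariates on reads, Nr3c2 (0.0194) and the Esrra sum (0.0112) passed and Esr1 did not (0.0573). In the CXB panel Nr3c1 passed (0.0212, with 16.4% of all gene rows), but this call rested on the CXB-3/ByJ library, without which the adjusted p was 0.826. In AXB/BXA (22.1% of gene rows), BXH (18.4%) and the inbred strains (47.4%), 0 of 5 rows passed, and the lowest adjusted p of such a row was 0.240, 0.242 and 0.561. The sum of Esrra transcripts passed in none of the panels other than BXD, where 14.3% of all such sums passed in AXB/BXA, 16.4% in BXH, 11.4% in CXB and 32.7% in the inbred strains. Without both libraries, Nr3c1 passed in BXD (0.0111), BXH (0.0164) and the inbred strains (0.0147). In that setting the joined row passed again in BXD (0.00643), and it passed in the inbred strains (0.00505). Esr1 (0.0295) and Nr3c2 (0.0230) still passed in BXD. In that setting 9443, 4075 and 8903 of all 14079 gene rows passed in these 3 groups. These tests share 1 residual spread over all strains. Fitted on each panel alone, 0 rows passed in BXD, and Nr3c1 passed in AXB/BXA (0.00829) and the inbred strains (0.00258), the latter together with the joined row (0.0153). Of all gene rows 5833 passed in BXD alone, 4719 in AXB/BXA alone and 8708 in the inbred strains alone. Differences between panels were not tested.

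Founder strains were compared with C57BL/6J, each with 3 mice. Of 20 contrasts, 5 deposited rows in A/J, DBA/2J, C3H/HeJ and BALB/cJ, 0 passed in limma, and 0 had an unadjusted p under 0.05. Of all gene rows 7.98%, 6.85%, 7.56% and 6.75% passed in these 4 strains. With Esrra as the sum of its transcripts 0 passed as well, where 4.49%, 3.68%, 4.43% and 3.96% of all such sums did. Esr1 had 1.68, 2.69 and 1.81 FPKM in A/J and 3.08 ± 1.17 (SD, n = 3) in C57BL/6J. This difference of -0.39 in log2(FPKM + 1) had the lowest p of the 20 (limma, adjusted p = 0.336, 95% interval -0.83 to 0.05). Nr3c1 was at 21.7 ± 1.83 FPKM in A/J and 16.3 ± 2.197 in C57BL/6J, a difference of 0.39 (limma, adjusted p = 0.420, interval -0.11 to 0.90). The intervals of all 20 lay within -0.83 and 0.90, and they do not show that founders are alike.

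Several receptors were correlated with each other over the 99 strain means. Of 10 pairs 5 passed after adjustment over the 10 pairs. Over all gene rows with 1 name, the quartiles of r were -0.22 and 0.22 with Nr3c1 and -0.17 and 0.18 with Pgr. They were -0.10 and 0.12 with Esr1, -0.13 and 0.13 with Nr3c2, and -0.13 and 0.14 with Esrra. The share of all gene pairs that would pass was not determined, so the 5 calls are not shown to be particular to the receptors. Pgr and Nr3c1 rose and fell together (r = 0.48, permutation p = 1e-05, adjusted p = 0.0001, Spearman's coefficient = 0.42 with p = 2e-05), and r was 0.34 without both libraries of high FPKM sum (adjusted p = 0.002). The same pair had r = 0.60 among mice within strains. Nr3c1 and Nr3c2 also moved together (r = 0.36, permutation p = 0.00026, adjusted p = 0.0013, Spearman's coefficient = 0.30 with p = 0.00256), with r = 0.27 without both libraries.

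Esr1 ran opposite to 2 other receptors. Against Nr3c1 r was -0.33 (permutation p = 0.00083, adjusted p = 0.00277, Spearman's coefficient = -0.32 with p = 0.00139), although within strains the mice showed r = 0.10 (adjusted p = 0.0810). Against Esrra r was -0.32 (permutation p = 0.00125, adjusted p = 0.00312, Spearman's coefficient = -0.31 with p = 0.00182) and -0.27 within strains, and -0.15 with the joined row in place of the Esrra sum (adjusted p = 0.214). Pgr and Esrra had r = -0.23 (permutation p = 0.0240, adjusted p = 0.0480), which did not pass with Spearman's coefficient (-0.17, adjusted p = 0.161) or without both libraries (r = -0.17, adjusted p = 0.157). Within strains r was -0.37 for Pgr and Esrra (permutation adjusted p = 0.0009). After removal of 2 strains, those with the most extreme level of the first gene, r was 0.43, 0.28, -0.30, -0.31 and -0.16 for these 5 pairs in the order given. The sign of r was the same in all 5 panels for Pgr with Nr3c1, Esr1 with Nr3c1 and Esr1 with Esrra. Within panels, 3 pairs passed in BXD (Pgr with Nr3c1, Nr3c1 with Nr3c2 and Esr1 with Nr3c1) and 0 in the other 4 panels. Strains of a panel share founder alleles, so the 99 strains are not fully independent points.

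Levels of the receptors also moved with markers of cell types and of neighbouring regions, and the part of these markers in the strain differences was not tested. Of 60 pairs of a receptor and 1 of 12 marker lists, 19 passed after adjustment over the 60 pairs, 11 with a positive and 8 with a negative r. The share of all gene rows that would pass with these lists was not determined. For each list the mean log2(FPKM + 1) of its measured genes was used.

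Esr1 rose with the hypothalamic list, which holds Pomc (r = 0.43, permutation adjusted p = 0.00036, Spearman's coefficient = 0.40) and with pituitary hormone genes (r = 0.39, adjusted p = 0.0006, Spearman's coefficient = 0.26), and fell with thalamic markers (r = -0.46, adjusted p = 0.00015, Spearman's coefficient = -0.43) and neuronal markers (r = -0.42, adjusted p = 0.00015, Spearman's coefficient = -0.39). Among mice within strains r was 0.45, 0.46, -0.31 and -0.16 for these 4 lists. Each of the 6 pituitary genes was at 0 in at least 1 mouse, and their sum had a median of 25.8 FPKM. The striatal list had r = 0.33 with Esr1 over strains (adjusted p = 0.00397) and 0.07 within strains (adjusted p = 0.382).

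Nr3c1 followed the neuronal list, Snap25, Syt1, Rbfox3 and Stmn2, more closely than any other list (r = 0.74, permutation adjusted p = 0.00015, Spearman's coefficient = 0.73), also within strains (r = 0.76) and without both libraries (r = 0.69). The neuronal sum itself varied little, from 887.9 to 1496 FPKM. Thalamic markers had r = 0.41 with Nr3c1 over strains (adjusted p = 0.000686) but 0.14 within strains (adjusted p = 0.0528), and globin and other blood genes had r = -0.33 over and -0.40 within strains. Astrocyte genes had r = -0.25 over strains (adjusted p = 0.0367) but 0.27 within strains (adjusted p = 0.0695). Pgr rose with the neuronal list too (r = 0.36, adjusted p = 0.0015), which did not pass without both libraries (r = 0.22, adjusted p = 0.0842), and fell with oligodendrocyte genes (r = -0.33), blood genes (r = -0.29) and the cortical list (r = -0.25).

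Esrra, as the sum of its transcripts, followed the thalamic list, Tcf7l2, Prkcd, Tnnt1, Lef1 and Ramp3 (r = 0.70, permutation adjusted p = 0.00015, Spearman's coefficient = 0.66), which had r = 0.59 within strains and 0.70 without both libraries. Nr3c2 rose with choroid plexus genes (r = 0.33, adjusted p = 0.00397) and with 2 cortical and hippocampal markers, Slc17a7 and Tbr1 (r = 0.33, adjusted p = 0.00399). Within strains the latter reached r = 0.50. The sum of these 2 genes ran from 2.31 to 109.4 FPKM over mice. Of the 5 choroid plexus genes 2 were at 0 in at least 1 mouse, and their sum ran from 7.25 to 2101 FPKM. The neuronal list had r = 0.26 with Nr3c2 (adjusted p = 0.0303) and 0.17 without both libraries (adjusted p = 0.189). The other pairs are shown in the heat map.

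**Figure D4:**
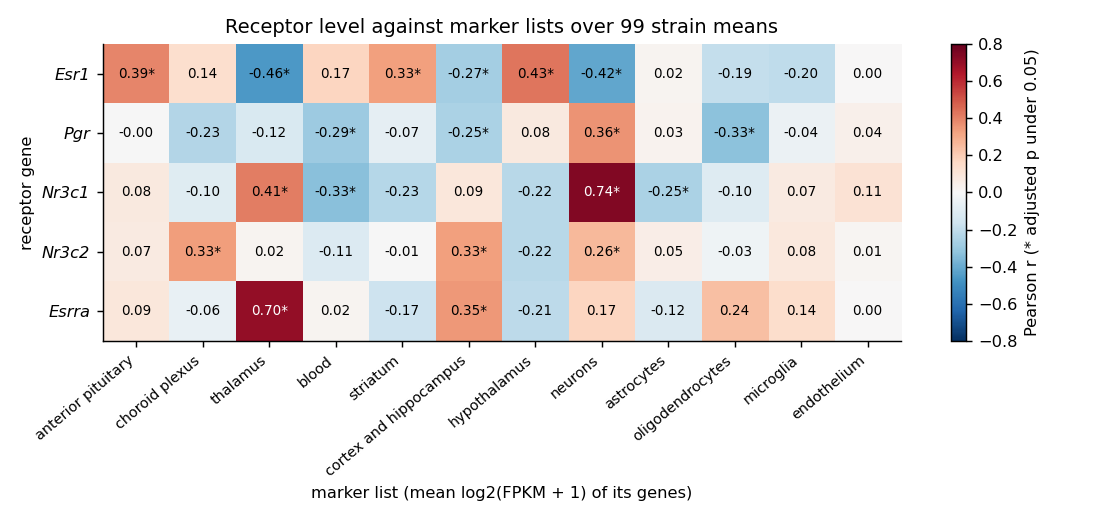
Pearson's r of each receptor with each of 12 marker lists over 99 strain means, coloured from -0.8 to 0.8, with an asterisk for an adjusted permutation p under 0.05. The strongest cells are Nr3c1 with neurons (0.74) and Esrra with thalamus (0.70), and Esr1 has the most asterisks, 6 of 12.

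**Figure D5:**
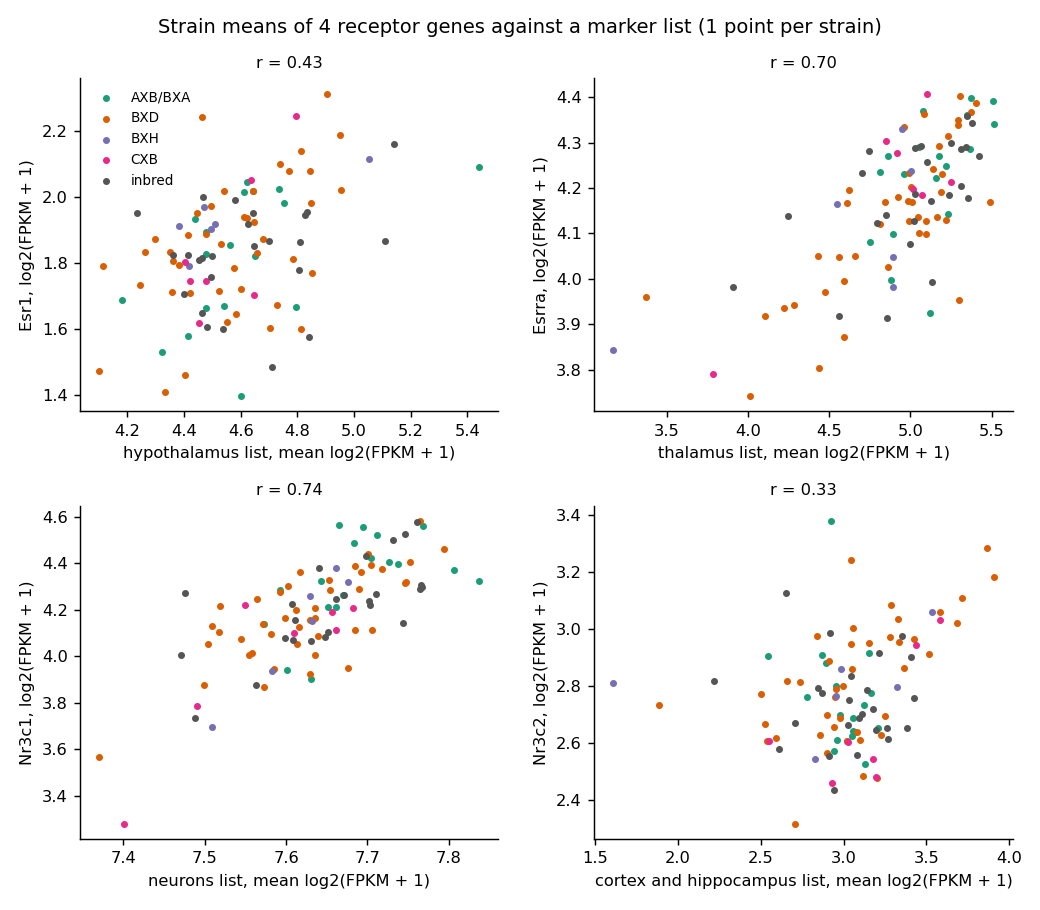
Strain means of Esr1, Esrra, Nr3c1 and Nr3c2 in log2(FPKM + 1) against the mean of a marker list, 1 point per strain, coloured by panel. The points slope upward in each plot, with r = 0.43, 0.70, 0.74 and 0.33.

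Among gene rows with 1 name, those most like each receptor over the 99 strain means were named as a description. For Nr3c1 these were Apc (r = 0.86), a brake on Wnt signalling, Scn1a (0.86), a neuronal sodium channel, and Edil3 (0.83), an extracellular matrix protein, and the row most opposite was Ptplad1 (-0.72). For Esrra they were Kctd17 (0.75), Ramp3 (0.73), a receptor activity-modifying protein that is also in the thalamic list, and Cplx1 (0.71), a synaptic complexin, against Gabrq (-0.70), a subunit of GABA-A receptors. Pgr was closest to Dlg2 (0.68), a postsynaptic scaffold, Clcn5 (0.67), a chloride transporter, and Slc7a14 (0.67), and most opposite to Pdcd6 (-0.61). Nr3c2 was closest to Cnksr2 (0.65), a synaptic scaffold, Zbtb18 (0.62), a transcriptional repressor, and Kalrn (0.61), a guanine nucleotide exchange factor, and most opposite to Coprs (-0.49). Esr1 was closest to Six6 (0.58), a homeobox gene of the developing hypothalamus and pituitary, Sytl4 (0.57) and Rab27a (0.55), which both act in secretory granules, and most opposite to Kcnab2 (-0.57), a potassium channel subunit. The median r of all such rows with a receptor was between -0.03 and 0.02. Without both libraries the r of these genes with Nr3c1 was 0.82, 0.83 and 0.77, and with Pgr 0.59, 0.58 and 0.58.

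Genes that work with these receptors were counted by the same strain test, to be read against the 74.9% of all gene rows. Of other members of the family 1 of 2 measured passed, just inside the threshold. This was Esrrg, an estrogen-related receptor (6.83 ± 1.55 FPKM, strain share 0.108, adjusted p = 0.0496). Of receptor chaperones 11 of 12 passed. Stip1, which links the chaperones Hsp70 and Hsp90, had a share of 0.617 and Hspa8, a constitutive Hsp70, 0.507, and Dnaja1, an Hsp40 co-chaperone, was the one not called (adjusted p = 0.210). Of coregulators 9 of 14 passed, led by the acetyltransferase gene Crebbp (share 0.385). The coactivators Ncoa2 (adjusted p = 0.0834) and Ncoa3 (0.0766), the corepressor Nrip1 (0.825), the PGC-1 relative Pprc1 (0.220) and the acetyltransferase gene Kat2b (0.0591) did not with all libraries. Without both libraries of high FPKM sum, 12 of 14 coregulators and 2 of 2 other family members passed. In that setting 83.6% of all gene rows passed. The counts of the other lists, here and below, did not change.

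Of enzymes of steroid metabolism 8 of 9 passed. Srd5a1, the steroid 5 alpha-reductase that reduces testosterone and progesterone, was at 3.33 ± 0.621 FPKM with a share of 0.630 (adjusted p = 1.76e-23), and Hsd11b1, which regenerates active glucocorticoid within cells, at 7.48 ± 2.27 FPKM with a share of 0.570 (adjusted p = 3.63e-19). H6pd, which supplies the cofactor of Hsd11b1, was not called (adjusted p = 0.394). All 16 measured genes of the glucocorticoid response passed, with a median share of 0.378, while Nr3c1 itself had 0.126. Among them were Sgk1, a kinase also induced by aldosterone (18.5 ± 10.3 FPKM, share 0.509), Klf9, a transcription factor (34.5 ± 5.96 FPKM, share 0.504), and Zbtb16 (3.17 ± 1.42 FPKM, share 0.478).

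Of the stress axis all 5 measured genes passed, with the binding protein gene Crhbp at a share of 0.434 and Avp at 0.292. Among them Pomc was at 272.8 ± 914.2 FPKM. Of genes known from neurons that express estrogen receptor alpha 12 of 13 passed, with a median share of 0.302, against 0.1004 for Esr1. Oxtr, the oxytocin receptor (share 0.387), and Tac2, the precursor of neurokinin B (0.365), were the most strain-dependent, and Prlr, the prolactin receptor, was not called (adjusted p = 0.0816). Of targets of estrogen-related receptors 10 of 12 passed. Mfn2, which fuses mitochondria, had a share of 0.394 and Cycs, cytochrome c, 0.385, and Acadm (adjusted p = 0.226) and Tfam (0.181) were not called.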

How the data were processed

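Hypothalamus mRNA libraries, made with unstranded 50-base paired-end sequencing, were aligned by the authors to mm10 with STAR (2.3.1), assembled with Cufflinks (2.2.0), merged with the GENCODE M2 annotation and quantified with Cuffnorm (2.2.1), as their methods and processing notes state. The deposited values are FPKM as scaled by the authors' Cuffnorm run, for genes, transcripts, start sites and coding sequences. They kept features above 0 in 100 mice and above 1 FPKM in 50 mice, and all 116327 deposited rows met this. Read counts per gene cannot be had from these values, so the depth behind a value is unknown and no counting interval is given.

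Values were analysed as log2(FPKM + 1). Strains were compared with limma (3.58.1, R 4.3.3) by a moderated F test over all rows, with Benjamini-Hochberg adjustment within each kind of row and a threshold of 0.05. Founders were compared in the same fit. The strain share is the intraclass correlation, with a 95% interval from the F distribution. Correlations used strain means and 2-sided permutation tests (100000 resamples, SciPy 1.17.1), or exact permutation in panels of up to 7 strains, with adjustment over 10 receptor pairs and over 60 pairs with marker lists. Isoform shares were tested where at least 200 mice had one. The strain test was tested on simulated data. Named strains are the 3 lowest and 3 highest means of each receptor, and named correlated genes the 3 highest r and the lowest, and of each pathway list the 2 or 3 genes of largest share and those not called. Of the other family members only the called one is named. All 282 per-mouse columns were used. Replicates are separate mice per the labels. The members, marker lists and pathway lists were chosen with earlier results of these data known. Alternatives were other pseudocounts, a filter on low values, quantile normalization, a Kruskal-Wallis test, leaving out replicates or the BXD-12/TyJ library of high FPKM sum, and the study's read number and unique alignment rate as covariates. Leaving out the CXB-3/ByJ library or both, and the covariates within panels, were added after the data had been seen. Gene positions and sequences are from GENCODE M21 (GRCm38).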

Additional observations from a re-analysis of the deposited data

How the results depend on the processing

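Counts of receptors called moved with the processing, and the cause was not tested. Of the gene rows 2 passed, and 1 did with covariates, with a pseudocount of 0.01 or with the sum of deposited transcripts in place of the gene row, and 0 to 3 without 1 replicate. Of transcripts 4 passed, with 1 at a pseudocount of 0.01 and in the Kruskal-Wallis test, 8 after quantile normalization, 7 without both libraries of high FPKM sum and 0 to 1 without 1 replicate. Start sites went from 2 to 1 with covariates, 0 in the Kruskal-Wallis test and 0 to 2 without 1 replicate, coding sequences from 4 to 2 both at a pseudocount of 0.01 and in the Kruskal-Wallis test and 0 to 4 without 1 replicate, and isoform shares from 4 to 0 to 1 without 1 replicate. Within BXD 3 rows became 0 with the panel fitted alone, 1 with covariates and 0 to 2 without 1 replicate. Within CXB 1 became 0 alone, 2 without the BXD-12/TyJ library, 0 without the CXB-3/ByJ library or both, and 0 to 2 without 1 replicate. The 0 rows of AXB/BXA became 1 alone, those of the inbred strains 2 alone or without both libraries, and those of BXH 1 without both. Receptor pairs called went from 5 to 3 within BXD and to 0 within AXB/BXA, BXH, CXB and the inbred strains.

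With the joined Esrra and Prdx5 row, r turned to -0.43 for Nr3c1 with Esrra and to -0.34 for Esrra with neurons. Over deviations of mice from their strain mean it turned to 0.10 for Esr1 with Nr3c1, -0.26 for Nr3c1 with Esrra, -0.18 for Esr1 with endothelium and 0.27 for Nr3c1 with astrocytes. Within BXH it turned to 0.44 for Pgr with Esrra and to -0.27 for Nr3c1 with Nr3c2. Of 1794 alternatives to 178 single values, 1598 kept the side of the threshold, and 122 lost and 66 gained the call. In the other 8 the sign changed where at least 1 of the 2 values passed. Changes of sign between values that both missed the threshold are counted among the 1598. The count over all features also moved. Without replicate 2 it fell from 10547 to 6421 gene rows, 23401 to 12367 transcripts, 16132 to 8476 start sites, 9725 to 5271 coding sequences and 16956 to 8573 isoform shares. Within panels it lay between 1360 and 4887 for AXB/BXA (3117), 4138 and 9798 for BXD (9013), 896 and 4075 for BXH (2592), 434 and 3875 for CXB (2312) and 3828 and 8903 for the inbred strains (6676). No paired analysis was possible because the labels give the strains no shared replicate numbers. Leaving out a replicate removes 1 mouse from most strains, so fewer samples enter.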

Other observations

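The mouse whose labels name both AXB8 and AXB-6 had 2.23 FPKM of Esr1, 4.78 of Pgr, 20.98 of Nr3c1, 5.84 of Nr3c2 and 17.99 of Esrra. The 2 mice of AXB-6/PgnJ had 2.71 to 3.21 FPKM of Esr1, 5.96 to 7.35 of Pgr, 18.5 to 22.6 of Nr3c1, 5.62 to 7.47 of Nr3c2 and 13.4 to 16.6 of Esrra. The 2 mice of AXB-8/PgnJ had 1.91 to 5.21, 4.53 to 4.66, 18.5 to 19.6, 5.33 to 6.26 and 16.5 to 19.2 FPKM of the same 5 receptors.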
